A study of Mus musculus with 6 samples.

Results

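Fatty acid oxidation was followed in injured mouse kidneys through 33 genes of its mitochondrial and peroxisomal arms. The genes were chosen by symbol as enzymes and carriers of the pathway, with the regulators Ppara and Ppargc1a and the linked enzymes Acot12 and Pdk4, and all 33 were measured among the 18238 genes tested. The kidneys came from male BALB/c mice aged 10 to 12 weeks. Blood flow to a kidney was stopped for 26 min and then restored, and its partner on the other side was taken out. Dosing followed 24 h later, with either vehicle, which was 20% 2-hydroxypropyl-b-cyclodextrin in water, or m4PTB at 100 mg per kg body weight. m4PTB is methyl 4-(phenylthio)butanoate, known as an inhibitor of histone deacetylases. Whole kidneys were taken 12 h after dosing, at day 1.5 of the injury, and 3 vehicle and 3 m4PTB kidneys were measured on 1 expression array each. Kidneys of both groups were injured and had been picked by the study by 3 criteria of injury, and no uninjured level enters the comparison.

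Cells of the proximal tubule draw most of their energy from fatty acids. Long-chain fatty acids are joined to coenzyme A, carried into mitochondria as carnitine esters and shortened in a repeated spiral of dehydrogenation, hydration, dehydrogenation and thiolysis, and the electrons pass to the respiratory chain. Peroxisomes shorten very long and branched fatty acids and bile acid intermediates by a similar spiral that starts with an oxidase. The nuclear receptor PPAR-alpha, encoded by Ppara, switches on many of these genes, and their loss is a known feature of kidney injury.

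Values are deposited log2 signals, on which a step of 1 is a 2-fold change, and differences are m4PTB minus vehicle with limma's standard error (SE) or 95% interval. The 33 genes ranged from 8.32 to 12.44 over the arrays. On every array each of them exceeded the signal below which 90% of the negative controls lay, 7.73 to 7.86, a level called the background limit here. Vehicle replicate 3 stood apart from the other arrays. Its mean correlation with them over all genes was 0.987, against 0.993 to 0.994 for the others, and the median of its negative controls was 5.56, against 5.88 to 5.95.

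The pathway as a whole had nearly the same mean in both groups. Over the 33 genes the mean signal was 10.57 ± 0.013 (SD, n = 3) with vehicle and 10.57 ± 0.020 (SD, n = 3) with m4PTB. Single arrays gave 10.58, 10.57 and 10.55 for vehicle and 10.59, 10.57 and 10.55 for m4PTB, so the groups overlapped. The median difference of the 33 genes was 0.017, against 0.012 over all genes tested. It became -0.040 with each array's median subtracted, -0.0043 after cyclic loess and -0.0084 without vehicle replicate 3, so the list had no settled direction. The signal was higher in m4PTB kidneys for 19 members and lower for 14. The share higher was 57.6%, against 54.5% of all genes tested and 65.9% of the 7420 genes above the background limit on all arrays, whose median difference was 0.035. With each array's median subtracted 8 members were higher and 25 lower, and the median over all genes tested fell too, to -0.045.

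**Figure D1:**
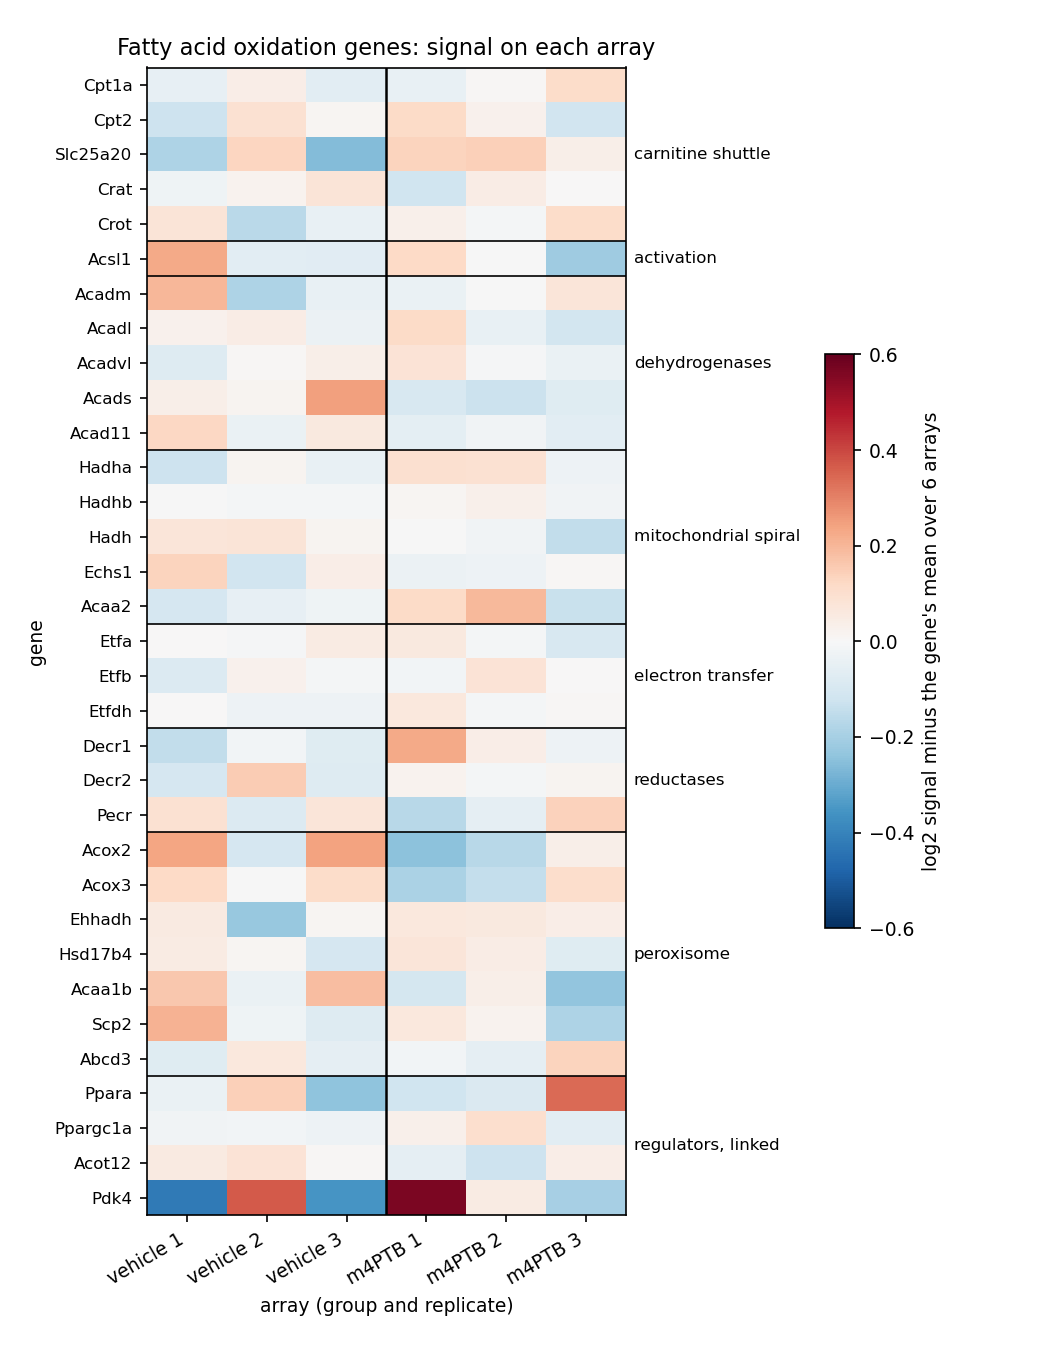
Log2 signal of each of the 33 genes (rows, grouped by role) on each of the 6 arrays (columns, vehicle and m4PTB), as the deviation from the gene's mean over the 6 arrays. Most cells are pale, no group of rows turns colour between vehicle and m4PTB, and Pdk4 has the widest spread, with m4PTB replicate 1 and vehicle replicate 2 high.

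No member passed limma's test at an adjusted p under 0.05, where 0% of all genes tested did. Adjusted p of the members ran from 0.683 to 0.966. At an unadjusted p under 0.05 by limma there was 1 member, Acads, lower in m4PTB kidneys. That is 3.03% of the list against 7.23% of all genes tested. Those higher in m4PTB kidneys made up 4.67% of all genes tested and those lower 2.56%. The m4PTB values lay wholly outside the range of the vehicle values for 2 members, Acads and Hadh, both lower. That is 6.06% of the list against 14.6% of all genes tested, made up of 9.38% higher and 5.21% lower. Among the 7420 brighter genes these shares were 5.51% and 16.9%. The median absolute difference of the members was 0.062, against 0.068 among those 7420 genes and 0.082 over all genes.

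The intervals show how large a difference these arrays leave possible. The difference of 22 members was under 0.1 in size. For 31 of the 33 members the 95% interval lay within 0.5 of 0 in either direction, a change of less than 1.41-fold, and for all 33 it lay within 1, a change of less than 2-fold. The 2 members whose intervals reached past 0.5 in size were Acox2, from -0.52 to 0.020, and Pdk4, from -0.30 to 0.85. Intervals of 32 members included 0. These bounds hold for the settings used here, and without vehicle replicate 2 the difference of Pdk4 was 0.53 with an SE of 0.20.

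**Figure D2:**
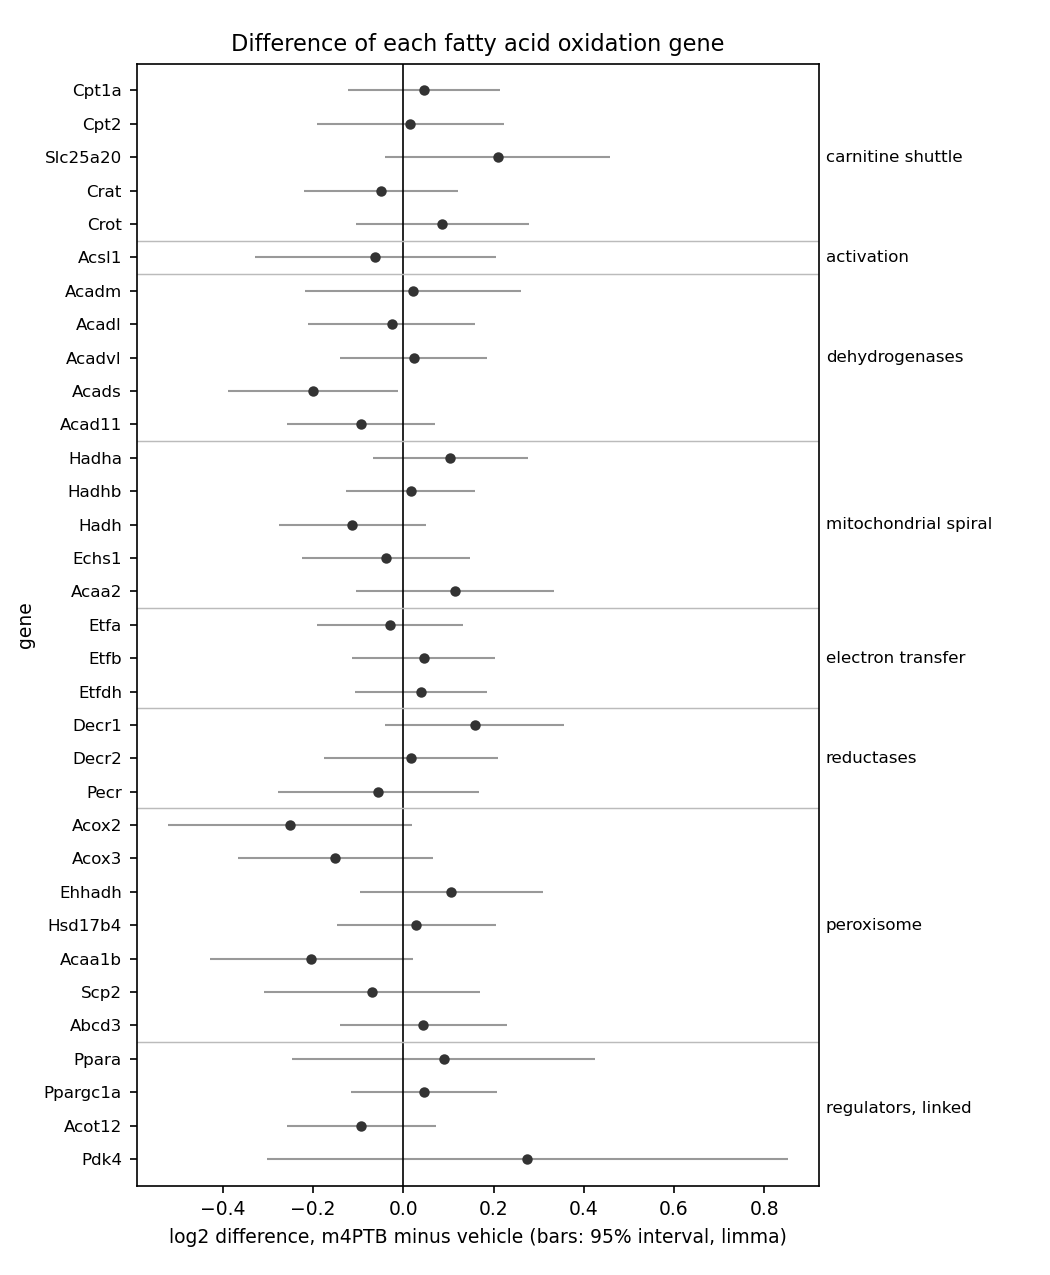
Log2 difference of each gene, m4PTB minus vehicle (horizontal axis), with its 95% interval from limma, grouped by role. The points lie between -0.25 and 0.27, and the interval of Acads alone stays on one side of 0, before any adjustment for the number of genes tested.

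The promoters of the genes were searched for the sequence that PPAR-alpha binds with its partner RXR, because the receptor is the best known common regulator of the list. The motif was AGGTCANAGGTCA, a pair of AGGTCA copies in the same orientation with 1 free base between them, on both strands, in the window from 250 bases before to 50 bases after each gene start in RefSeq (GRCm38.p6). RefSeq promoters were given for 29 of the 33 genes, as 32 windows. With at most 2 of the 12 fixed letters changed, the motif was found in 5 of these 32 windows (15.6%) and in 1268 of all 32851 windows (3.86%). With at most 1 letter changed it was found in 1 member window, that of Acot12, and in 182 of all windows (0.554%), and no member had an exact match. The 5 windows are shown from 140 bases before to 30 bases after the gene start, on the strand of the gene, with the matched letters in capitals, to let the matches be read in genes of different roles. They lie at chr13:91741381-91741550 for Acot12 (plus strand), chr14:8258810-8258979 for Acox2 (minus strand), chr7:140116392-140116561 for Echs1 (minus strand), chr9:55512214-55512383 for Etfa (minus strand) and chr9:108661996-108662165 for Slc25a20 (plus strand).
Acot12: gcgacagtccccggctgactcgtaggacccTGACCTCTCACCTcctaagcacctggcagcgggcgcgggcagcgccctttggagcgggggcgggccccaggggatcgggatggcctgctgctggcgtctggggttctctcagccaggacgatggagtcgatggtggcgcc
Acox2: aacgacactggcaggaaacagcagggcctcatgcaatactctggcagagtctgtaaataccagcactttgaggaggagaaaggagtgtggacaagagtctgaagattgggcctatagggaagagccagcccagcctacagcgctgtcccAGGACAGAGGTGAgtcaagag
Echs1: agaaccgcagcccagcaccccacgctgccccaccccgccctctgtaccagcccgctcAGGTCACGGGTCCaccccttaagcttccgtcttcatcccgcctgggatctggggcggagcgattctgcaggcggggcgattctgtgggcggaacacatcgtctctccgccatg
Etfa: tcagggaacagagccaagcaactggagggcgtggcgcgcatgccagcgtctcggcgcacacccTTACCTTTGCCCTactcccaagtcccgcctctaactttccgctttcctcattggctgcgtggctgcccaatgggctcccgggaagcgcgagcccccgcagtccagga
Slc25a20: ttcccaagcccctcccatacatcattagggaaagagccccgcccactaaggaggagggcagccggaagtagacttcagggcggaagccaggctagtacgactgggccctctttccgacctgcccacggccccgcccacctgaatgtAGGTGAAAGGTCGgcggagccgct
In Acot12 and Etfa the match reads on the strand opposite to the gene, as AGGTGAGAGGTCA and AGGGCAAAGGTAA. In Acox2 and Slc25a20 it begins 10 and 7 bases past the gene start, and in Echs1 it begins 83 bases before it. These matches are letters in a window and not measured binding. Some windows overlap, among them those of Acox2 and those of Hadha and Hadhb, and the shares of windows with a match were not tested. The differences of the 5 genes ran both ways, from -0.25 for Acox2 to 0.21 for Slc25a20, with -0.093 for Acot12, -0.038 for Echs1 and -0.030 for Etfa.

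Of the carnitine shuttle, Slc25a20 had the largest difference. It is the carrier that exchanges acylcarnitine for carnitine across the inner mitochondrial membrane, and its promoter is shown above. Its signals were 9.26, 9.57 and 9.18 in vehicle kidneys and 9.58, 9.58 and 9.48 in m4PTB kidneys, in the order of replicates 1 to 3 as for all genes here. The m4PTB kidneys sat together, while vehicle replicate 2 lay among them and the other vehicle kidneys lay below. The difference was 0.21 with an SE of 0.11, or 1.16-fold, and did not pass (limma, adjusted p = 0.685). Leaving out vehicle replicate 2 raised it to 0.33, and leaving out vehicle replicate 3 lowered it to 0.13.

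Cpt1a, the outer membrane enzyme that commits fatty acids to mitochondrial oxidation, differed little. Its signals were 11.56, 11.65 and 11.54 in vehicle kidneys and 11.56, 11.62 and 11.72 in m4PTB kidneys. The difference of 0.046 with an SE of 0.073 was smaller than the SD of either group (limma, adjusted p = 0.856), and its 95% interval ran from -0.12 to 0.21. Cpt2, which returns the acyl group to coenzyme A inside the mitochondrion, differed by 0.015. Crat, which moves acetyl groups, differed by -0.049, and Crot, which prepares the shortened products of peroxisomes for export, by 0.086. With each array's median subtracted Cpt1a and Cpt2 were at -0.011 and -0.042. Acsl1, which activates long-chain fatty acids with coenzyme A, averaged 10.68 ± 0.17 (SD, n = 3) with vehicle and 10.62 ± 0.17 (SD, n = 3) with m4PTB, a difference of -0.062 with a 95% interval from -0.33 to 0.21.

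The acyl-CoA dehydrogenases take the first step of the mitochondrial spiral, each for its own range of chain lengths, and Acads, for short chains, had the smallest p of all members. Its signals were 10.28, 10.26 and 10.49 in vehicle kidneys and 10.15, 10.11 and 10.17 in m4PTB kidneys. Every m4PTB kidney was below every vehicle kidney, and vehicle replicate 3 was the highest. The difference was -0.20 with an SE of 0.081, or 1.15-fold lower, and did not pass over all genes tested (limma, adjusted p = 0.683). The exact two-sided permutation test gave p = 0.1, the smallest that 3 against 3 arrays allow. Without vehicle replicate 3 the difference was -0.13.

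The enzymes for longer chains gave differences closer to 0. Acadm, for medium chains, was at 12.03, 11.64 and 11.79 in vehicle kidneys and 11.79, 11.83 and 11.90 in m4PTB kidneys, so that the vehicle kidneys held both the highest and the lowest value. Its difference was 0.021 with an SE of 0.10 (limma, adjusted p = 0.956). Acadl, for long chains, was at 10.92, 10.94 and 10.86 in vehicle kidneys and 11.01, 10.85 and 10.78 in m4PTB kidneys. Here the m4PTB kidneys held both extremes, and the difference was -0.026 with an SE of 0.080 (limma, adjusted p = 0.930). Acadvl, for very long chains, differed by 0.023. Acad11, a further member of the family, was at 10.54, 10.37 and 10.48 in vehicle kidneys and 10.36, 10.40 and 10.35 in m4PTB kidneys. Vehicle replicate 2 lay within the m4PTB range, and the difference was -0.094 with an SE of 0.071 (limma, adjusted p = 0.719), or -0.056 without vehicle replicate 1. No difference between Acads and the other dehydrogenases was tested.

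The later steps of the spiral gave small differences in both directions. Hadh, the dehydrogenase of shorter 3-hydroxyacyl chains, was at 12.43, 12.44 and 12.38 in vehicle kidneys and 12.36, 12.34 and 12.22 in m4PTB kidneys. The groups did not overlap, but vehicle replicate 3 and m4PTB replicate 1 were only just apart, and the difference was -0.11 with an SE of 0.070 (limma, adjusted p = 0.700). The exact two-sided permutation test again gave its smallest possible p, 0.1, and without m4PTB replicate 3 the difference was -0.068. Hadha, the alpha subunit of the trifunctional protein for long chains, was at 10.90, 11.05 and 10.98 in vehicle kidneys and 11.12, 11.12 and 11.00 in m4PTB kidneys. Only m4PTB replicate 3 fell within the vehicle range, and the difference was 0.10 with an SE of 0.074 (limma, adjusted p = 0.716), or 0.067 without vehicle replicate 1.

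Hadhb encodes the beta subunit and starts 273 bases from Hadha on the opposite strand of chromosome 5 in RefSeq (GRCm38.p6). It averaged 10.16 ± 0.0070 (SD, n = 3) with vehicle and 10.18 ± 0.026 (SD, n = 3) with m4PTB, a difference of 0.016. Hadhb has 2 probe sets, whose signals lay 0.047 to 0.060 apart on all 6 arrays. Echs1, the hydratase for short chains, differed by -0.038. Acaa2, the mitochondrial thiolase, averaged 11.08 ± 0.038 (SD, n = 3) with vehicle and 11.20 ± 0.17 (SD, n = 3) with m4PTB, a difference of 0.11, with m4PTB replicates 1 and 2 above the vehicle range and m4PTB replicate 3 below it. Without m4PTB replicate 2 or 3 the difference of Acaa2 was 0.046 or 0.21.

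Electrons from the acyl-CoA dehydrogenases pass to the electron transfer flavoprotein, whose subunits are encoded by Etfa and Etfb, and from it through Etfdh to ubiquinone. These genes differed by -0.030, 0.045 and 0.039. Their 95% intervals ran from -0.19 to 0.13 for Etfa, from -0.11 to 0.20 for Etfb and from -0.11 to 0.19 for Etfdh.

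Unsaturated fatty acids need reductases besides the spiral. Decr1, the 2,4-dienoyl-CoA reductase of mitochondria, was at 9.96, 10.09 and 10.04 in vehicle kidneys and 10.34, 10.15 and 10.08 in m4PTB kidneys. Of the m4PTB kidneys, replicate 3 fell just below vehicle replicate 2, and the difference was 0.16 with an SE of 0.086 (limma, adjusted p = 0.690). Without m4PTB replicate 1 it was 0.085. Its peroxisomal relative Decr2 differed by 0.017, and Pecr, a peroxisomal enoyl-CoA reductase, by -0.055.

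Of the 7 members grouped as peroxisomal oxidation and import, 3 were higher and 4 lower in m4PTB kidneys. Acox2, Acaa1b and Acox3 had the smallest p of these 7, and all 3 were lower. They were singled out by their p in these same data, so they do not describe the peroxisomal genes as a group. Acox2, an oxidase of branched fatty acids and bile acid intermediates, was at 10.20, 9.86 and 10.20 in vehicle kidneys and 9.71, 9.79 and 9.99 in m4PTB kidneys. Vehicle replicate 2 lay within the m4PTB range and the other vehicle kidneys above it. The difference was -0.25 with an SE of 0.12, or 1.19-fold lower (limma, adjusted p = 0.685). Acox3, a further oxidase of branched chains, was at 10.79, 10.67 and 10.78 in vehicle kidneys and 10.48, 10.53 and 10.78 in m4PTB kidneys, with m4PTB replicate 3 among the vehicle kidneys. It differed by -0.15 with an SE of 0.093 (limma, adjusted p = 0.700). Acaa1b, a peroxisomal thiolase, was at 8.72, 8.52 and 8.74 in vehicle kidneys and 8.45, 8.59 and 8.32 in m4PTB kidneys, with vehicle replicate 2 again inside the m4PTB range. It differed by -0.20 with an SE of 0.097, or 1.15-fold lower (limma, adjusted p = 0.685). With single arrays left out the difference of Acox2 ran from -0.36 to -0.19 and that of Acaa1b from -0.27 to -0.14, and with array weights that of Acaa1b was -0.098. That of Acox3 was -0.24 without m4PTB replicate 3 and -0.093 without m4PTB replicate 1.

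The other peroxisomal genes gave smaller differences in both directions. Ehhadh, the bifunctional enzyme of straight chains, was at 11.87, 11.59 and 11.83 in vehicle kidneys and 11.88, 11.87 and 11.85 in m4PTB kidneys. Vehicle replicate 2 was the single low kidney. The difference was 0.11 with an SE of 0.088 (limma, adjusted p = 0.741), and 0.019 without vehicle replicate 2 or 0.16 without vehicle replicate 1. Hsd17b4, the bifunctional enzyme of branched chains and bile acid intermediates, differed by 0.029. Scp2, whose longer product is a thiolase of branched chains, differed by -0.069, and Abcd3, a transporter of fatty acids into peroxisomes, by 0.044.

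Over the 10 peroxisomal members, Crot, Decr2 and Pecr included, 5 were higher and 5 lower with a median of -0.019. Over the 19 members grouped as mitochondrial, Acad11 included with the other dehydrogenases, 11 were higher and 8 lower with a median of 0.016. The peroxisomal mean was 10.44 ± 0.062 (SD, n = 3) with vehicle and 10.39 ± 0.028 (SD, n = 3) with m4PTB. The mitochondrial mean was 10.73 ± 0.0022 (SD, n = 3) with vehicle and 10.74 ± 0.043 (SD, n = 3) with m4PTB.

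**Figure D3:**
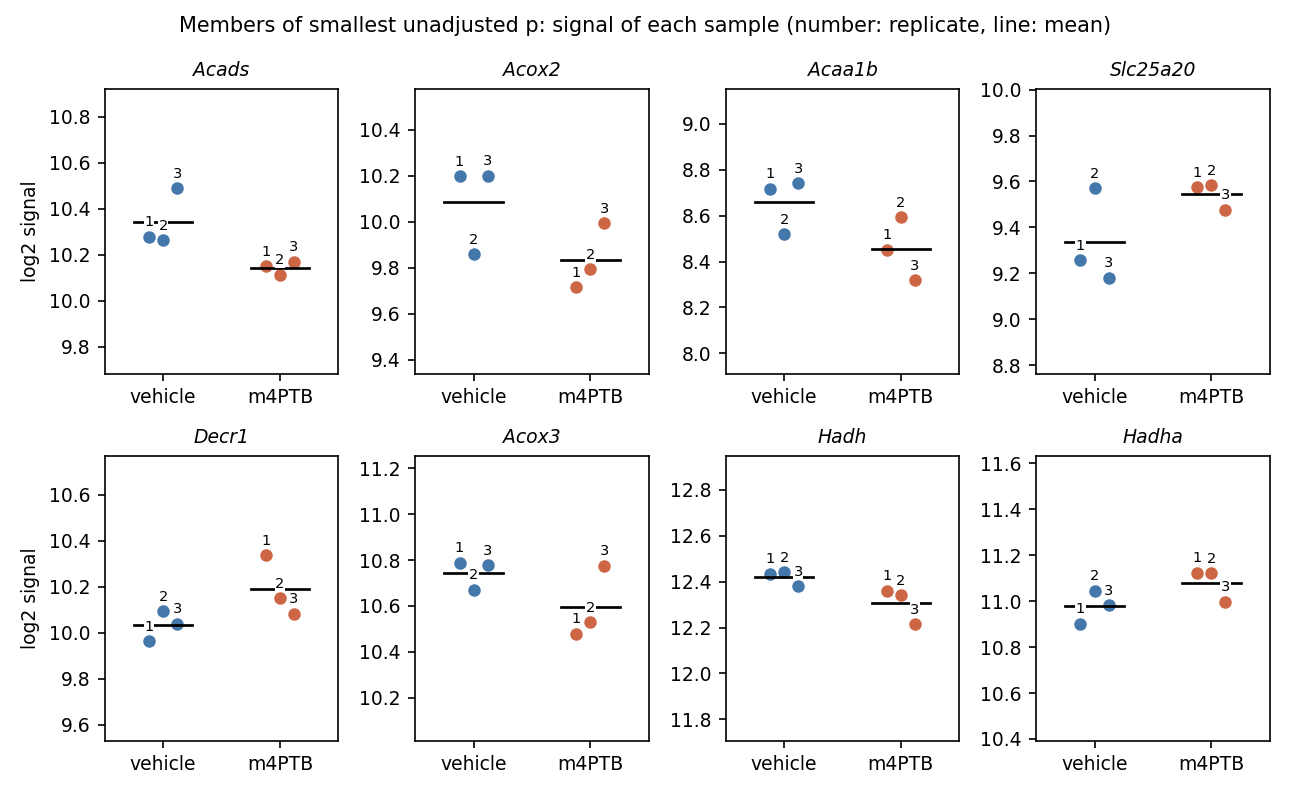
Log2 signal of the 8 members of smallest unadjusted p in each of the 3 vehicle and 3 m4PTB kidneys, with a line at each group's mean. The groups are apart for Acads and Hadh, and for the other 6 genes at least 1 kidney lies within the range of the opposite group.

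Neither regulator of the pathway separated the groups. Ppara was at 9.47, 9.65 and 9.26 in vehicle kidneys and 9.38, 9.42 and 9.84 in m4PTB kidneys. The m4PTB values of replicates 1 and 2 lay inside the vehicle range and that of replicate 3 was the highest of all, and the difference was 0.089 with an SE of 0.15 (limma, adjusted p = 0.863). Its sign turned without m4PTB replicate 3 (-0.058) and without vehicle replicate 3 (-0.0084). Ppargc1a, which encodes the coactivator PGC-1alpha, was at 10.88, 10.89 and 10.87 in vehicle kidneys and 10.93, 11.00 and 10.84 in m4PTB kidneys. The highest and the lowest kidney were both of the m4PTB group, and the difference was 0.046 with an SE of 0.070 (limma, adjusted p = 0.851). Its other, dimmer probe set gave -0.044. Acot12, a cytosolic thioesterase of acetyl-CoA, whose promoter is the first shown above, was at 11.48, 11.51 and 11.43 in vehicle kidneys and 11.37, 11.30 and 11.47 in m4PTB kidneys. m4PTB replicate 3 lay among the vehicle kidneys, and the difference was -0.093 with an SE of 0.072 (limma, adjusted p = 0.725), or -0.055 without m4PTB replicate 2.

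Pdk4, a kinase that shuts off pyruvate dehydrogenase when fatty acids are burned, varied more between kidneys than any other member. Its signals were 8.32, 9.11 and 8.39 in vehicle kidneys and 9.31, 8.80 and 8.54 in m4PTB kidneys, a range of 0.99 against a median range of 0.25 over the 33 genes. Vehicle replicate 2 stood above m4PTB replicates 2 and 3. The difference was 0.27 with an SE of 0.25, or 1.21-fold (limma, adjusted p = 0.760). Without vehicle replicate 1, 2 or 3 it was 0.13, 0.53 or 0.17, and without m4PTB replicate 1 or 3 it was 0.062 or 0.44, so single kidneys set its size.

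Angptl4 and Plin2, known targets of PPAR-alpha, had ranges over the 6 kidneys of 1.02 and 0.91, while Cyp4a10 and Pnpla2 of the same list had ranges of 0.41 and 0.19. Angptl4, a secreted inhibitor of lipoprotein lipase, was at 8.17, 8.83 and 8.57 in vehicle kidneys and 9.19, 8.64 and 8.60 in m4PTB kidneys (limma, adjusted p = 0.713). Plin2, a coat protein of lipid droplets, was at 9.12, 9.52 and 8.99 in vehicle kidneys and 9.90, 9.51 and 9.21 in m4PTB kidneys (limma, adjusted p = 0.695). Without m4PTB replicate 1 the differences of Angptl4 and Plin2 were 0.098 and 0.15, from 0.29 and 0.33. In Pdk4, Angptl4 and Plin2 alike m4PTB replicate 1 was the highest kidney and vehicle replicate 2 the highest of its group. The mean signals of the tubular injury and dividing cell markers described below had the same highest kidneys. Their lowest kidney was vehicle replicate 3, as for Plin2, while Pdk4 and Angptl4 were lowest in vehicle replicate 1. m4PTB replicate 1 was also the highest kidney for 10 of the oxidation genes, more than any other kidney. A link between these genes and the markers was not tested. Cyp4a14, a fatty acid omega-hydroxylase, did not have these highest kidneys. Its signals were 10.78, 10.68 and 11.00 in vehicle kidneys and 11.08, 11.12 and 9.87 in m4PTB kidneys, with m4PTB replicate 3 below the rest (limma, adjusted p = 0.910). Without that kidney its difference turned from -0.13 to 0.28. Cyp4a genes are close relatives, so their probe sets may share target sequence.

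**Figure D4:**
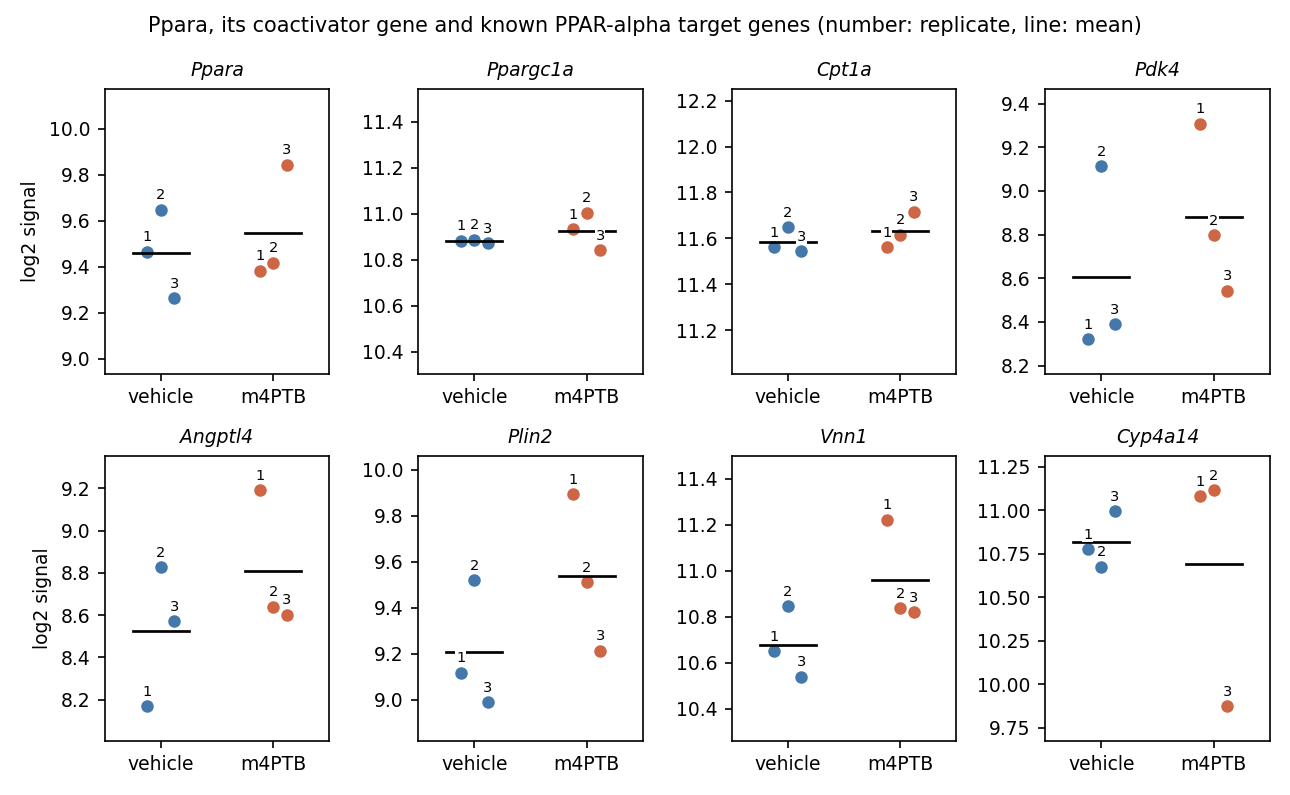
Log2 signal of Ppara, Ppargc1a, Cpt1a, Pdk4, Angptl4, Plin2, Vnn1 and Cyp4a14 in each kidney, with a line at each group's mean. Ppargc1a and Cpt1a are tight, while Pdk4, Angptl4 and Plin2 spread widely within both groups.

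The rest of the pathway was counted through 91 further measured genes in 5 lists, and 0 of them passed limma's test. At an unadjusted p under 0.05 by limma there were 2 higher and 2 lower, or 4.40% against 7.23% of all genes tested. Of the 91 genes 6 were wholly higher and 6 wholly lower in m4PTB kidneys, or 13.2% against 14.6%. Their median difference was -0.0042. Of 18 other mitochondrial genes 8 were higher and 10 lower, with Mcee, an epimerase of propionate breakdown, at -0.25, and Mmut and Pccb of the same route at -0.19 and -0.18. Mmut was at -0.12 without m4PTB replicate 1, and Pccb at -0.11 without vehicle replicate 3 and -0.12 without m4PTB replicate 3. Of 25 other peroxisomal genes 14 were higher and 11 lower. The thiolase Acaa1a differed by 0.061. Acot4, a thioesterase, differed by 0.17 and Phyh, the first enzyme of phytanic acid breakdown, by -0.15.

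Of 17 genes of fatty acid uptake, binding and activation 9 were higher and 8 lower. Fabp5, a fatty acid binding protein, was at 6.86, 7.03 and 6.86 in vehicle kidneys and 7.34, 7.21 and 7.28 in m4PTB kidneys, a difference of 0.36 with an SE of 0.077 (limma, adjusted p = 0.577). The groups did not overlap, but this gene exceeded the background limit on no array. Acsl3, an acyl-CoA synthetase, differed by -0.25, and the uptake receptor gene Cd36 by 0.18, or 0.088 without m4PTB replicate 3. Of 6 ketone body genes 5 were lower, with a list median of -0.087. Of 25 PPAR targets and partners 12 were higher and 13 lower. Acot1, a thioesterase, differed by 0.27, Vnn1, a pantetheinase, by 0.28, the lipase gene Pnpla2 by -0.13 and Cyp4a10 by -0.0042. Without m4PTB replicate 1 Acot1 was at 0.14 and Vnn1 at 0.15.

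Markers of the cells that carry the pathway were followed beside it, as counts on the deposited scale. All 20 proximal tubule markers exceeded the background limit. Of them 13 were lower and 7 higher with a median of -0.077, and the list mean was 12.23 to 12.30 in vehicle kidneys and 12.16 to 12.21 in m4PTB kidneys. Slc22a8, an organic anion transporter, and Miox, an oxygenase of inositol, had the smallest p of these 20 in these same data. They were at -0.32 and -0.24 (limma, adjusted p = 0.648 and 0.663), while the highest difference in the list was 0.21. Hnf4a and Slc27a2 stand both in this list and in the lists of other pathway genes. In bulk tissue fewer cells of a type and less RNA per cell cannot be told apart. All 8 loop of Henle markers and all 10 collecting duct markers were lower, with medians of -0.12 and -0.11. The loop of Henle mean was 10.83 to 10.95 in vehicle kidneys and 10.68, 10.85 and 10.79 in m4PTB kidneys. The collecting duct mean was 9.30 to 9.37 in vehicle kidneys and 9.10, 9.26 and 9.27 in m4PTB kidneys. The medians of distal convoluted tubule, podocyte and endothelium markers were -0.13, 0.063 and 0.057. In the distal convoluted tubule list too m4PTB replicate 1 had the lowest mean, 10.17. The mean of the fibroblast markers, whose median was 0.16, was 9.47, 9.46 and 9.06 in vehicle and 9.53, 9.47 and 9.49 in m4PTB kidneys, with vehicle replicate 3 alone low. Of 10 tubular injury markers 8 were higher with a median of 0.23, and their mean was 9.09 to 9.62 in vehicle and 9.44 to 9.82 in m4PTB kidneys. On no array was the background limit exceeded by 3 of these 10, by 2 podocyte markers, or by 1 distal convoluted tubule and 1 fibroblast marker. Havcr1 (Kim1), a marker that the study had used to select kidneys, differed by 0.014.

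All 12 markers of dividing cells were higher, though 1 of them exceeded the background limit on no array. Their median was 0.73, and their list mean was 7.96 to 8.60 in vehicle and 8.76 to 9.20 in m4PTB kidneys. That list mean was highest in m4PTB replicate 1 and lowest in vehicle replicate 3, whereas the mean of the 33 oxidation genes lay between 10.55 and 10.59 on every array. Of 10 macrophage markers all were higher, with a median of 0.14, and 6 exceeded the background limit on no array. Vehicle replicate 3 had the lowest mean of the tubular injury and macrophage lists too. The 5 perirenal fat and muscle markers measured, the 3 neutrophil markers and the 4 T and B cell markers exceeded it on no array either. The part of these cell types in the values of the oxidation genes was not tested.

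**Figure D5:**
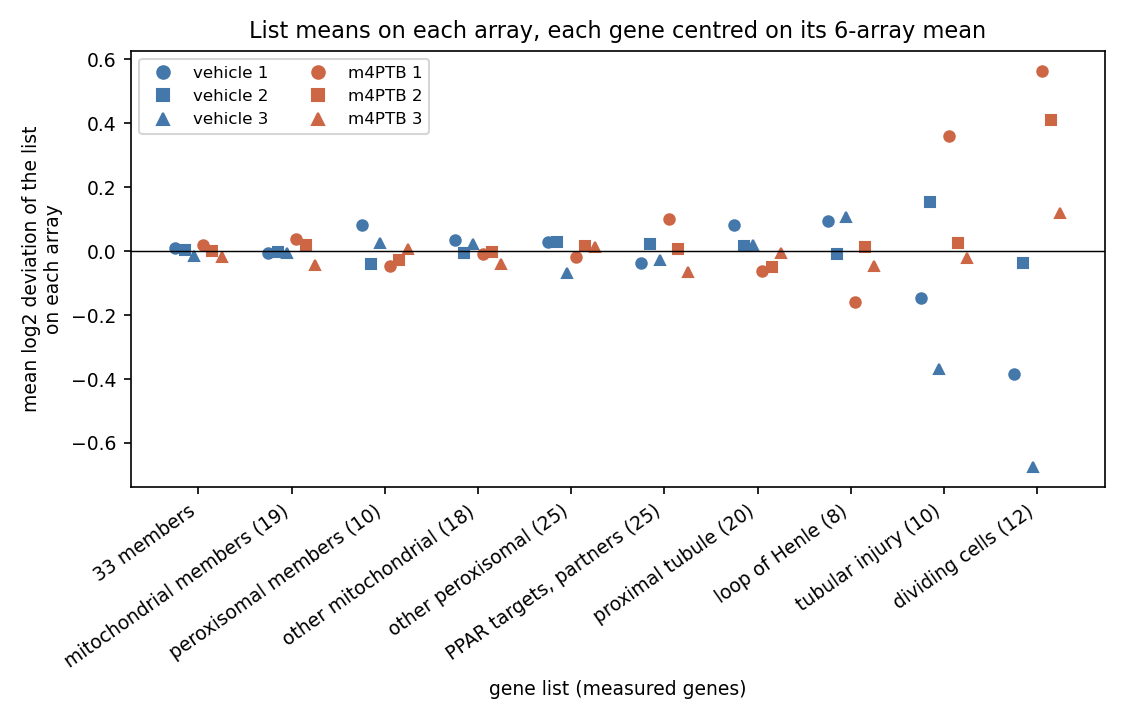
Mean log2 deviation of 10 gene lists on each array, each gene centred on its mean over the 6 arrays, with vehicle and m4PTB arrays marked apart. The 33 members stay between -0.019 and 0.020 on the 6 arrays, while dividing cell markers run from -0.68 to 0.56.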

How the data were processed

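Biotin-labelled total RNA of whole kidneys (10 ug per sample) was measured on Affymetrix Mouse Gene 1.0 ST arrays, a type named per the file headers. The values the authors deposited are log2 signals per probe set, and the submitters' processing notes name RMA and Expression Console 1.1. This method subtracts background, normalizes quantiles between arrays and summarises probes, which hides any shift shared by most genes. Precision is limited by the number of arrays.

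The table of 35556 probe sets by 6 samples supplied the values, and the annotation of the full RMA table the gene symbols. Another 6 signal columns of that full table have array names found in no label, and were not used. Of the probe sets, 25004 had 1 symbol, 2 had several and 10550 had none, and the 6559 controls were left out. RefSeq (GRCm38.p6) held the accessions of 22271 probe sets, and 2269 symbols were updated by it. A probe set was kept if its log2 signal reached 5 on 3 or more arrays (20968 probe sets), and a gene took its probe set of highest mean, which left 18238 genes. The annotation of the array names another build, so coordinates are those of RefSeq only.

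Group and replicate number are those of the sample titles. The labels call these separate samples and say no more, so p-values measure the spread between the samples, which may be partly technical. The difference, m4PTB minus vehicle, came from limma 3.58.1 (lmFit, eBayes; R 4.3.3) without covariates, with Benjamini-Hochberg adjustment over all genes and calls at an adjusted p under 0.05. Intervals are unadjusted. The fit was tested on simulated data. Members and lists were chosen with earlier results of these data known, so lists are described by counts and medians without a test. Every array value is given for the 10 members of smallest p and for 7 further members. A few genes that the naming rule covers are not reported here. Alternatives changed the filter, normalization, probe set rule, symbols, variance model, array weights, replicate block and single arrays.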

Additional observations from a re-analysis of the deposited data

How the results depend on the processing

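Under 15 alternatives, 0 genes passed limma's test in any, as with the settings used here, where 1318 genes had an unadjusted p under 0.05. The smallest adjusted p of any member was 0.344. The sign of 15 members never turned, and 18 turned in at least 1 alternative, in 37 of 495 member values, all with a reported difference of 0.089 or less in size. With each array's median subtracted, 8 members were higher, 25 lower and 4 had an unadjusted p under 0.05 by limma. The median of the members was then -0.040, that of the other pathway genes -0.061 and that of all genes tested -0.045. The differences that turned were -0.011 for Cpt1a, -0.042 for Cpt2, -0.036 for Acadm, -0.034 for Acadvl, -0.041 for Hadhb, -0.012 for Etfb, -0.018 for Etfdh, -0.040 for Decr2, -0.028 for Hsd17b4, -0.013 for Abcd3, -0.011 for Ppargc1a and -0.043 for Havcr1. After cyclic loess 3 members had an unadjusted p under 0.05, the medians were -0.0043 and -0.027, and the turned differences were -0.0079 for Acadvl, -0.0043 for Hadhb, -0.017 for Decr2 and 0.015 for Cyp4a10. With array weights, which gave vehicle replicate 3 a weight of 0.242, the median of the members was -0.0088, and the turned differences were -0.045 for Decr2, -0.014 for Abcd3, -0.062 for Ppara, 0.0078 for Cyp4a10, 0.13 for Cyp4a14 and -0.13 for Havcr1. Trended and robust variances gave 3 members with an unadjusted p under 0.05. The cause of these turns was not tested.

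With single arrays left out, 0 to 5 members had an unadjusted p under 0.05, with 5 without vehicle replicate 2, 3 without m4PTB replicate 3 and 0 without vehicle replicate 3 or m4PTB replicate 1. The median of the members ran from -0.0084 to 0.019, and that of the other pathway genes from -0.023 to -0.0024. Differences that turned ran from -0.043 to 0.078 for Cpt2, from -0.14 to 0.036 for Acsl1, from -0.067 to 0.13 for Acadm, from -0.091 to 0.023 for Acadl, from -0.012 to 0.050 for Acadvl, from -0.11 to 0.019 for Echs1, from -0.068 to 0.010 for Etfa, from -0.028 to 0.096 for Decr2, from -0.14 to 0.014 for Pecr, from -0.014 to 0.073 for Hsd17b4, from -0.13 to 0.018 for Scp2, from -0.012 to 0.087 for Abcd3, from -0.058 to 0.18 for Ppara, from -0.094 to 0.11 for Cyp4a10, from -0.34 to 0.28 for Cyp4a14 and from -0.11 to 0.17 for Havcr1.

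The replicate block gave 0 members with an unadjusted p under 0.05, against 1 without it, and 0 genes called. No pairing of the samples by the labels' numbers was seen. Same-numbered arrays correlated at -0.13, -0.051 and -0.080 in their deviations from the group means, and no vehicle array correlated best with its own number. So few arrays cannot exclude a pairing, because the deviations within a group cancel each other by construction.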
